A study of Mus musculus with 54 samples.

Results

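Ovaries of first-generation (F1) female mice raised on the higher of 2 pharmaceutical mixtures were compared with ovaries of females raised on the vehicle. The comparison held 6 of the 54 libraries of the study, 3 dose 2 libraries and 3 control libraries, chosen by their labels alone. Each library is RNA from an ovary sample taken at 30 days after birth, sequenced after a stranded mRNA preparation. The mothers drank the treated water from 8.5 days after mating, and the daughters went on drinking it until they were killed. Dose 2 was a mixture of ibuprofen at 113 ng/L, its metabolite 2-hydroxyibuprofen at 225 ng/L, diclofenac at 112 ng/L and 17α-ethinylestradiol at 45 ng/L. Control water held ethanol at 0.001%. The 3 F1 ovary libraries of the lower mixture, dose 1 (ibuprofen 11.3 ng/L, 2-hydroxyibuprofen 90 ng/L, diclofenac 22.5 ng/L and ethinylestradiol 2.25 ng/L), entered the fits to share the estimate of the spread. The labels name no mouse strain and do not say whether the libraries of a group came from different litters, so p-values measure the spread between these libraries, which may be partly technical.

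Ibuprofen and diclofenac inhibit the cyclooxygenases, which make the prostaglandins that act at ovulation, and ethinylestradiol is a potent synthetic agonist of the estrogen receptors. The ovary of a mouse around puberty holds growing follicles, in which granulosa and theca cells cooperate to make steroids and exchange signals of the transforming growth factor β (TGF-β) and bone morphogenetic protein (BMP) families with the oocyte. In bulk ovary RNA, fewer cells of a type and less RNA per cell cannot be told apart.

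All 6 libraries carried the defining transcripts of ovary. Levels are given in CPM, the counts of a gene scaled to a common library size. Gdf9 of oocytes ranged from 128 to 176 CPM, Zp3 of the egg coat from 93.4 to 117 CPM, and Foxl2 of granulosa cells from 251 to 302 CPM. Depth ran from 36640553 to 50689096 counts per library. Control A stood apart from the other libraries. The sperm protamine gene Prm1 was at 248 CPM there and at 5.34 to 16.4 CPM in the other 5, and the Y-linked Eif2s3y was at 4.76 CPM against 0.0989 to 0.309 CPM. Across 16 germ cell genes that are abundant in testis, control A reached a median of 8.97% of the level in F1 control testes, and the 5 other libraries 0.24% to 0.657%. Fold changes and list medians below are therefore given with control A and again without it.

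No gene passed the threshold of an adjusted p of 0.05 in edgeR's quasi-likelihood test. With all 3 controls, 0 of 17896 genes tested were called (0%), and the lowest adjusted p was 0.185. An unadjusted p under 0.05 was reached by 671 genes (3.75%), of which 306 were higher and 365 lower at dose 2, where 894.8 would be reached if no gene differed. Without control A, 0 of 18069 genes were called (0%), and 616 (3.41%) had an unadjusted p under 0.05. DESeq2, run on the same counts, called 8 genes with control A (0.0365%) and 9 without it (0.0398%). Because edgeR called none, the genes below are described by their values, and those that DESeq2 called are named as such. The 3 genes in each direction with the lowest edgeR p without control A were Sfrp1, Tcf21 and Gbp2b (higher) and Bmpr2, Bicd1 and Stard9 (lower).

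Bmpr2, the type II BMP receptor that binds oocyte-derived growth factors on granulosa cells, had the lowest p with and without control A. It was at 634, 610 and 610 CPM in controls A, B and C, at 558, 556 and 570 CPM at dose 1, and at 438, 425 and 449 CPM at dose 2. Every dose 2 library was below every dose 1 library, and every dose 1 library was below every control. The log2 fold change of Bmpr2 at dose 2 against control was -0.50 ± 0.06 (SE; edgeR adjusted p = 0.185). Without control A it was -0.48 ± 0.07 (edgeR adjusted p = 0.999). DESeq2 gave Bmpr2 an adjusted p of 2.05e-26 with control A and 9.72e-08 without it. Between the doses, the log2 difference of Bmpr2 was -0.36 ± 0.06 for dose 2 minus dose 1 (edgeR adjusted p = 0.645; DESeq2 adjusted p = 5.11e-12). Scaled over all 27 ovary libraries of the study, Bmpr2 ranged from 412 to 599 CPM (median 547) in the 9 F1 libraries. In the 18 libraries of the second generation, which pool the control cross with crosses of exposed parents, it ranged from 118 to 502 CPM (median 353). The dose 2 level lay inside the range of the later generation, where Bmpr2 was lower in general.

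The other genes with lower values are less familiar in the ovary. Bicd1, which links cargo to the dynein motor, was at 33.6, 36.1 and 35.3 CPM in the controls and at 27.3, 25 and 24 CPM at dose 2. The groups did not overlap, with a log2 fold change of -0.46 ± 0.08 (SE; edgeR adjusted p = 0.814) and -0.49 ± 0.10 without control A (edgeR adjusted p = 0.999). DESeq2 called Bicd1 with control A (adjusted p = 0.00569) and not without it (adjusted p = 0.0606). Stard9, a kinesin with a lipid-transfer domain, was at 84.2, 104 and 88.6 CPM in the controls and at 75.5, 72.8 and 71.9 CPM at dose 2. All 3 dose 2 libraries of Stard9 were below the controls, and neither tool called it (log2 fold change -0.33 ± 0.08, and -0.40 ± 0.08 without control A). Pik3cg, a catalytic subunit of phosphoinositide 3-kinase used by leukocytes, was at 25.2, 27.7 and 24.8 CPM in the controls and at 17.6, 18.4 and 14.7 CPM at dose 2. Its log2 fold change was -0.62 ± 0.13, and -0.64 ± 0.15 without control A (SE; edgeR adjusted p = 0.814 and 0.999). DESeq2 called Pik3cg with control A (adjusted p = 0.0491) and not without it (adjusted p = 0.167).

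Sfrp1 and Tcf21, both active in mesenchymal cells, were higher in every dose 2 library than in any control. Sfrp1, a secreted inhibitor of WNT signals, was at 119, 109 and 107 CPM in the controls, at 122, 127 and 131 CPM at dose 1, and at 142, 158 and 160 CPM at dose 2. The 3 groups of Sfrp1 did not overlap. Its log2 fold change was 0.45 ± 0.07 (SE; edgeR adjusted p = 0.649; DESeq2 adjusted p = 1.11e-05), and 0.50 ± 0.08 without control A (edgeR adjusted p = 0.999; DESeq2 adjusted p = 0.00041). Tcf21, a transcription factor of mesenchymal cells that restrains steroidogenic fate in the fetal gonad, was at 67.5, 70.6 and 76.3 CPM in the controls and at 100.1, 98.7 and 98.4 CPM at dose 2. The 3 dose 1 libraries of Tcf21, at 78, 78.4 and 74.7 CPM, overlapped the controls. The log2 fold change of Tcf21 was 0.47 ± 0.06 (edgeR adjusted p = 0.185; DESeq2 adjusted p = 2.55e-09), and 0.43 ± 0.07 without control A (edgeR adjusted p = 0.999; DESeq2 adjusted p = 0.00135).

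Gbp2b, an interferon-inducible GTPase, was at 2.28, 2.81 and 1.55 CPM in the controls, at 3.8, 4.19 and 3.78 CPM at dose 1, and at 5.45, 5.93 and 4.67 CPM at dose 2. The 3 groups did not overlap. The log2 fold change was 1.27 ± 0.25 (SE; edgeR adjusted p = 0.814; DESeq2 adjusted p = 0.00473), and 1.29 ± 0.27 without control A (edgeR adjusted p = 0.999; DESeq2 adjusted p = 0.0169). Serpina3g, a protease inhibitor made by immune cells, was at 6.66, 6.43 and 5.05 CPM in the controls and at 11.7, 11.1 and 9.81 CPM at dose 2. Its log2 fold change was 0.85 ± 0.18, and 0.92 ± 0.19 without control A (SE; edgeR adjusted p = 0.814 and 0.999). DESeq2 called Serpina3g with control A (adjusted p = 0.0412) and without it (adjusted p = 0.0261). Both genes belong to families of similar neighbours, so their counts are uncertain where reads match several copies.

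**Figure D1:**
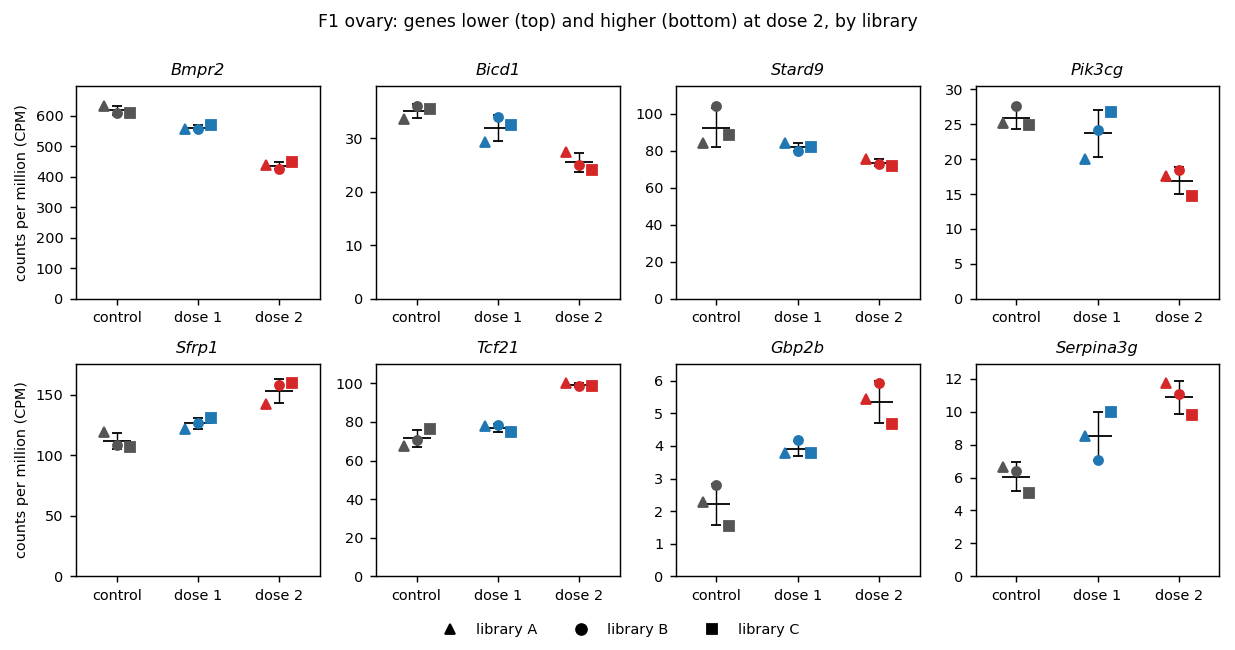
CPM of 8 genes in the 9 F1 ovary libraries, with symbols for libraries A, B and C and bars for the mean ± SD of each group (n = 3). Bmpr2, Bicd1, Stard9 and Pik3cg were lower in all 3 dose 2 libraries than in any control, and Sfrp1, Tcf21, Gbp2b and Serpina3g were higher, while edgeR called none of them.

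Separation of the groups is itself common in these data. Of the 17896 genes tested, 4.12% had all 3 dose 2 libraries above all 3 controls and 3.8% had them below (7.92% in all). Against controls B and C alone, the shares were 9.49% above and 8.57% below. A higher value at dose 2, separated or not, was found for 45% of the genes tested with control A and for 49.8% without it. These shares are the base for the counts of higher and lower genes against control in every list below. With 3 libraries against 3, an exact two-sided permutation test of one gene cannot give a p under 0.1.

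Ifi204, a sensor of foreign DNA that interferon induces, differed among the dose 2 libraries. It was at 2.31, 2.41 and 2.02 CPM in the controls, at 2.39, 3.04 and 2.93 CPM at dose 1, and at 35.9, 50.3 and 2.57 CPM in dose 2 libraries A, B and C. Dose 2 A and B were high and dose 2 C was at the level of dose 1. The log2 fold change of Ifi204 was 3.71 ± 0.85 (SE; edgeR adjusted p = 0.814) and 3.73 ± 1.00 without control A (edgeR adjusted p = 0.999), and DESeq2 called it with control A (adjusted p = 0.0412) but not without it (adjusted p = 0.301). With dose 2 C left out, Ifi204 was the single gene that edgeR called (adjusted p = 0.000987). Over all 27 ovary libraries, 6 were above 10 CPM and the highest of the rest was at 4.24 CPM. Besides dose 2 A and B, these were 1 library of the unexposed second-generation cross at 68.5 CPM, 1 with a dose 2 mother and 2 with both parents from dose 2. Ifi204 has near-identical neighbours, so its counts are uncertain.

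DESeq2 called 4 further genes in the fit without control A and not with it: C7, Hepacam and the predicted genes Gm3002 and Gm6567. C7, a component of the complement attack complex, was at 28.3, 17.2 and 17 CPM in the controls and at 40.3, 27.1 and 37.3 CPM at dose 2, so that control A lay above dose 2 B. Its log2 fold change was 0.74 ± 0.26 with control A and 1.02 ± 0.23 without it (SE; edgeR adjusted p = 0.814 and 0.999). Gm6567 was at 5.13 CPM in control A and at 0.0989 and 0.135 CPM in controls B and C, against 1.15, 2.53 and 2.11 CPM at dose 2. Hepacam, a cell adhesion protein, was likewise high in control A, at 5.45 CPM against 1.54 and 0.584 CPM in controls B and C, and was at 3.31, 4.59 and 6.36 CPM at dose 2. Its log2 fold change was 0.91 ± 0.73, or 2.15 ± 0.57 without control A (SE).

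The BMP and TGF-β families were then read as whole lists, since they carry the exchange between oocyte and granulosa cells. Of the 22 BMP signalling genes tested, 8 were higher and 14 lower at dose 2, with a median log2 fold change of -0.03 (-0.06 without control A), against -0.02 over all genes tested. The median was -0.09 without control B and 0.03 without control C. Besides Bmpr2, the type I receptor Bmpr1b was at 186, 167 and 184 CPM in the controls and at 159, 140 and 121 CPM at dose 2. No dose 2 library of Bmpr1b reached a control, and its log2 fold change was -0.36 ± 0.10 (SE; edgeR adjusted p = 0.814), or -0.33 ± 0.11 without control A (edgeR adjusted p = 0.999). Chrd, an extracellular antagonist of BMPs, was at 3.65, 4.21 and 4 CPM in the controls and at 5.72, 5.18 and 5.86 CPM at dose 2, with a log2 fold change of 0.50 ± 0.17 (0.44 ± 0.17 without control A). The ligands Bmp15 and Gdf9 of the oocyte overlapped between the groups, at log2 fold changes of -0.17 and -0.09 (-0.17 and -0.12 without control A). Downstream, Id1, Id2 and Id3, classical targets of BMP receptors, had log2 fold changes of 0.25, 0.21 and 0.05, and of 0.13, 0.18 and -0.05 without control A, where Id3 changed sign. None was called by edgeR.

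In the list of inhibin, activin, AMH and TGF-β genes, 10 of 21 were higher and the median log2 fold change was -0.0021 (-0.03 without control A), and 0.02 without dose 2 B. Acvr2a, a type II activin receptor, was at 32.5, 31.7 and 30.4 CPM in the controls and at 27.2, 24.2 and 25.6 CPM at dose 2. Fst, which sequesters activin, was at 423, 452 and 443 CPM in the controls and at 331, 342 and 292 CPM at dose 2. Both genes lay below all 3 controls in each dose 2 library, and their log2 fold changes were -0.30 ± 0.07 and -0.45 ± 0.12 (SE; edgeR adjusted p = 0.814 for each). Without control A these were -0.28 ± 0.08 and -0.48 ± 0.13 (edgeR adjusted p = 0.999 for each). Tgfbr2, a TGF-β receptor, was higher in all 3 dose 2 libraries, at 131 ± 3.54 CPM against 111 ± 7.34 CPM (SD, n = 3), with a log2 fold change of 0.23 ± 0.08, or 0.18 ± 0.09 without control A (SE; edgeR adjusted p = 0.814 and 0.999).

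Interferon response genes were the list described here with the most members at an unadjusted p under 0.05 when all 9 libraries were used. Interferon-induced genes encode antiviral effectors such as Isg15, a ubiquitin-like modifier, and regulators such as Irf7. Of 25 members tested with all 9 libraries, 23 were higher at dose 2 and 8 had an unadjusted p under 0.05. Of the 25, 8 lay above all 3 controls in every dose 2 library, and 0 were called by either tool. Gbp2b, which DESeq2 called, is not on this list. Over all genes tested, 45% were higher, 3.75% had an edgeR unadjusted p under 0.05 and 4.12% lay above all 3 controls. The median log2 fold change of the interferon list was 0.57, and 0.55 without control A, against -0.02 and -0.00064 over all genes tested. Xaf1, an interferon-induced promoter of apoptosis, was at 7.52, 6.96 and 6.17 CPM in the controls and at 18.4, 12.8 and 10.3 CPM at dose 2. Its dose 2 libraries lay above every control, and its log2 fold change was 1.00 ± 0.25 (SE; edgeR adjusted p = 0.814), or 1.07 ± 0.28 without control A (edgeR adjusted p = 0.999). Irf7, which amplifies interferon transcription, was at 8.73, 10.2 and 7.36 CPM in the controls and at 19.4, 11.8 and 12.9 CPM at dose 2. Isg15 was at 2.04, 2.12 and 1.75 CPM in the controls and at 4.56, 2.63 and 3.05 CPM at dose 2. The log2 fold changes of Irf7 and Isg15 were 0.74 ± 0.26 and 0.79 ± 0.29, or 0.73 ± 0.29 and 0.81 ± 0.31 without control A (SE).

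Library dose 2 A was the highest of the 3 dose 2 libraries for 22 of these 25 genes and the highest of all 6 libraries for 21. Ifit1, an antiviral RNA-binding protein, was at 9.3 CPM in dose 2 A and at 1.55 and 2.38 CPM in dose 2 B and C, against 1.83, 1.78 and 0.561 CPM in the controls. With dose 2 A left out, the median log2 fold change of the list was 0.20, 21 of 25 members were still higher, and 2 rather than 8 had an unadjusted p under 0.05. Dose 2 A was also the highest of the 6 libraries in the summed level of the macrophage list, at 547 CPM against 351 to 459 CPM in the controls and 362 and 456 CPM in the other dose 2 libraries. The summed MHC class II list was at 299 CPM in dose 2 A, 77.4 to 177 CPM in the controls and 93.2 and 151 CPM in the other dose 2 libraries. The part of leukocyte content in the interferon list was not tested. Without dose 2 A, the MHC class II list had a median log2 fold change of -0.13, against 0.42 with all 9 libraries and 0.68 without control A.

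The promoters of Isg15 and Gbp2b are shown because both genes were separated from control and both hold the core of the interferon-stimulated response element, the binding site of interferon-activated factors. Sequences are from RefSeq (build GRCm38.p6) and cover 250 bases before to 50 bases after the start site. The letters searched were GAAANNGAAA on both strands, and capitals mark each match, including overlapping ones. The Isg15 window is chr4:156200769-156201068 on the minus strand, with 3 overlapping matches. The Gbp2b window is chr3:142594597-142594896 on the plus strand, with 1 match on the opposite strand.
Isg15: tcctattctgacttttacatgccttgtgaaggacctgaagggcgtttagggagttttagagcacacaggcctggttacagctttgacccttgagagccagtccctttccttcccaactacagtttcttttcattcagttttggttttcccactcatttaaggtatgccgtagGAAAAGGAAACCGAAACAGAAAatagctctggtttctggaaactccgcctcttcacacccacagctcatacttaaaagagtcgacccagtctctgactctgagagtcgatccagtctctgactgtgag
Gbp2b: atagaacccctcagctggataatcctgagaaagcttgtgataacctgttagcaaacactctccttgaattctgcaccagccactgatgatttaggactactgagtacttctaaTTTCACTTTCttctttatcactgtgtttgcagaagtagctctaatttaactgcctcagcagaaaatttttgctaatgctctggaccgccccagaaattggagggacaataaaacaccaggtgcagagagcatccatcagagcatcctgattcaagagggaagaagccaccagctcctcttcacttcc

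Of the 26 genes on the interferon list, 17 have a promoter in the RefSeq table, and 10 of these hold the letters, among them Isg15, Ifit1, Ifit3, Ifit3b and Rsad2. Over all 32851 promoters of the table the share was 3.44%. Shares over the table count promoters, whereas a list gene was counted if any of its promoters matched, so the units differ. The palindrome of the estrogen response element, GGTCANNNTGACC, was in 0.07% of all promoters. Among the 13 genes named by low p-value or a DESeq2 call, 10 have a promoter in the table and 0 of these hold the palindrome. In the estrogen response list, 0 of the 17 genes with a promoter hold it. Estrogen receptors also act at distant sites, which these windows do not cover.

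Heat shock chaperones and their partners, which keep proteins folded in the cytosol and, for Hspa5, Hspd1 and Hspe1, in the endoplasmic reticulum or mitochondria, had mostly lower values at dose 2. Of 15 members tested, 14 were lower with control A and 15 without it. The median log2 fold changes were -0.19 and -0.22, against -0.02 and -0.00064 over all genes tested. Of all genes tested, 45% were higher with control A and 49.8% without it. Without control B, 10 were lower and the median was -0.08, and without control C the median was -0.12. Dnajb1, a co-chaperone that delivers clients to HSP70, was at 92.1, 88.8 and 73.9 CPM in the controls, at 87.8, 110 and 87.4 CPM at dose 1, and at 56.2, 67.9 and 58 CPM at dose 2. Dose 2 lay below control and dose 1 in every library of Dnajb1. Its log2 fold change was -0.49 ± 0.12 (SE; edgeR adjusted p = 0.814), or -0.43 ± 0.14 without control A (edgeR adjusted p = 0.999). Hsp90aa1, the inducible HSP90, was at 776, 865 and 649 CPM in the controls and at 529, 598 and 588 CPM at dose 2, a log2 fold change of -0.42 ± 0.15 (-0.41 ± 0.17 without control A). Dnaja1, another HSP40-type co-chaperone, was at 261, 291 and 267 CPM in the controls, at 322, 363 and 335 CPM at dose 1, and at 229, 248 and 243 CPM at dose 2. Its 3 groups did not overlap, and dose 1 was the highest of them. The log2 fold change of Dnaja1 against control was -0.19 ± 0.07, and -0.22 ± 0.09 without control A (SE; edgeR adjusted p = 0.814 and 0.999).

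The chaperones were also compared between the doses. For dose 2 minus dose 1, edgeR called 0 of 17896 genes (0%), with 1077 at an unadjusted p under 0.05 (6.02%), and DESeq2 called 54 (0.42%). All 15 chaperones were lower at dose 2 than at dose 1, with a median log2 difference of -0.37. DESeq2 called Dnaja1 (log2 difference -0.50 ± 0.07 in edgeR; DESeq2 adjusted p = 1.15e-07), Dnajb1 (-0.64 ± 0.12; adjusted p = 0.00252), Hsp90aa1 (-0.58 ± 0.15; adjusted p = 0.0395) and Hsph1 (adjusted p = 0.0395) between the doses. Against control, DESeq2 called none of the 15.

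Genes of the unfolded protein response, which expands folding capacity in the endoplasmic reticulum, were mostly lower at dose 2 too, with no call against control. Of 18 members, 13 were lower with control A and 14 without it, with medians of -0.15 and -0.13 on the log2 scale, and of -0.09 without control B. Creld2, an endoplasmic reticulum stress-inducible disulfide isomerase, was at 83.7, 106 and 86.3 CPM in the controls and at 63.5, 73.3 and 70 CPM at dose 2. Creld2 was the only member of the list with each dose 2 library below each control, as were 3.8% of all genes tested. Against controls B and C alone, Hspa5, Hsp90b1, Pdia4, Pdia6, Sdf2l1, Manf and Calr lay below in each dose 2 library too. The share over all genes tested was then 8.57%. The log2 fold change of Creld2 was -0.42 ± 0.13 (SE; edgeR adjusted p = 0.814), or -0.48 ± 0.14 without control A (edgeR adjusted p = 0.999). Between the doses, DESeq2 called Creld2 (log2 difference -0.56 ± 0.13 in edgeR; DESeq2 adjusted p = 0.0285). Hspa5, the main chaperone of that compartment, was at 892, 1380.5 and 1118 CPM in the controls and at 929, 985 and 901 CPM at dose 2. Control A of Hspa5 lay below all 3 dose 2 libraries, and its log2 fold change was -0.27 ± 0.16 with control A and -0.42 ± 0.14 without it. Sdf2l1 and Manf, also induced by endoplasmic reticulum stress, had log2 fold changes of -0.46 ± 0.20 and -0.33 ± 0.15, and of -0.63 ± 0.18 and -0.47 ± 0.13 without control A. The members that went the other way were Ddit3, Atf3, Atf5, Trib3 and Chac1. Their log2 fold changes were 0.05, 0.35, 0.03, 0.25 and 0.28 (0.10, 0.30, -0.06, 0.28 and 0.13 without control A).

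The promoters of Hspa5 and Creld2 are shown because both carry the endoplasmic reticulum stress element, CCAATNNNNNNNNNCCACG, searched on both strands and marked in capitals. The Hspa5 window is chr2:34771840-34772139 on the plus strand, and the Creld2 window is chr15:88819396-88819695 on the plus strand, where the match is on the opposite strand.
Hspa5: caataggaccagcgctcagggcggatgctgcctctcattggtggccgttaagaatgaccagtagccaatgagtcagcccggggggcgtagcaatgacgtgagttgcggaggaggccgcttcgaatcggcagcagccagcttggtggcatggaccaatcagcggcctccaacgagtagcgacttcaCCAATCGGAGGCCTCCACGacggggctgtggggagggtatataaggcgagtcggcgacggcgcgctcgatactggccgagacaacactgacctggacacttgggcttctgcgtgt
Creld2: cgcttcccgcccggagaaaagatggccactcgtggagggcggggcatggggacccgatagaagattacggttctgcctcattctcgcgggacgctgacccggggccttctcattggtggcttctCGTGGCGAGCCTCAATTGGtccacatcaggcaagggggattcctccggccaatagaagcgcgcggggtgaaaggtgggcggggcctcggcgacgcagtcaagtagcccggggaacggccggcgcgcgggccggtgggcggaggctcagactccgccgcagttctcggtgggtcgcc

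Of the 18 genes of the unfolded protein response list, 17 have a promoter in the table and 5 hold these letters (Hspa5, Hsp90b1, Pdia6, Creld2 and Calr), against 0.119% of all promoters. The heat shock element GAANNTTCNNGAA was in 3 of the 10 chaperone genes with a promoter (Hsph1, Hspe1 and Hspd1) and in 0.603% of all promoters. A match is a description of the letters and not a site of binding.

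**Figure D2:**
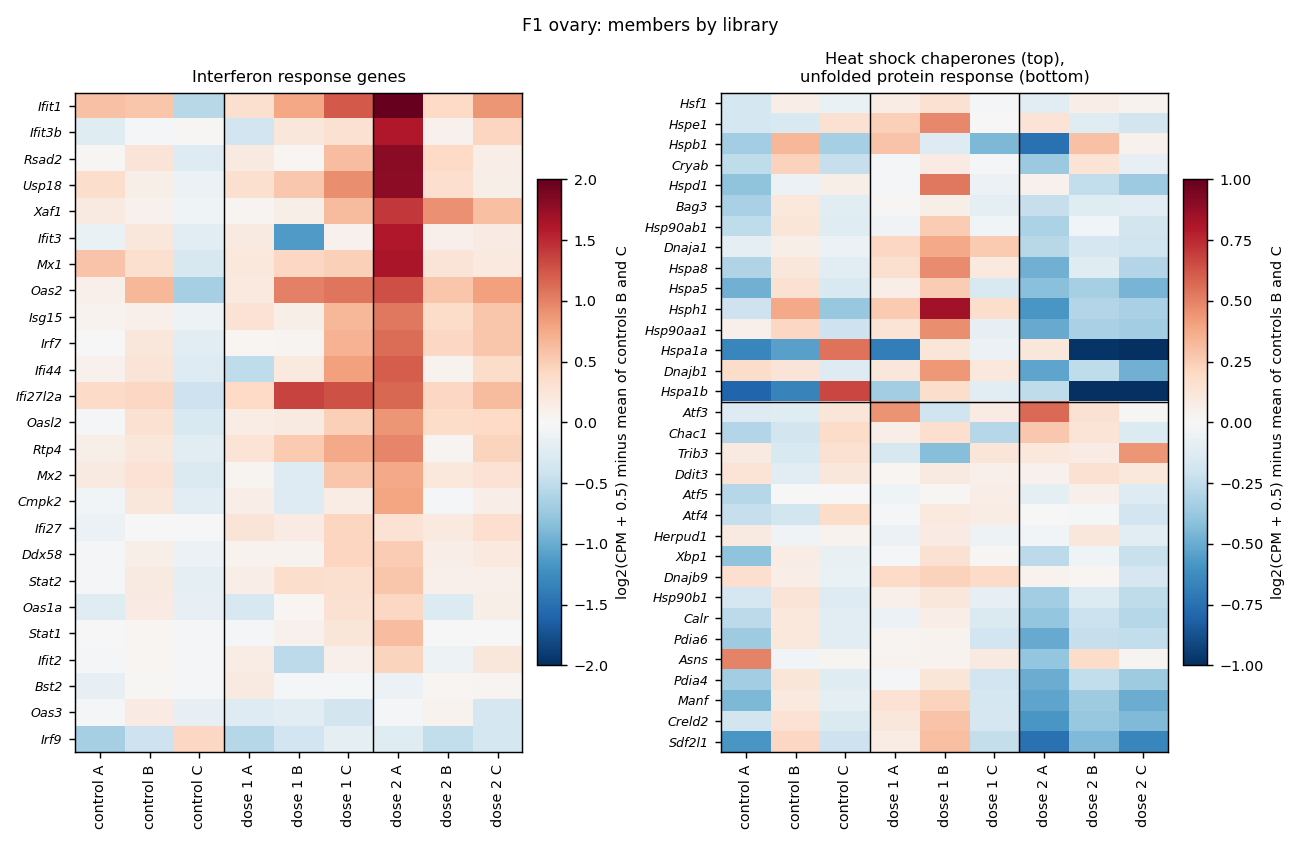
Log2(CPM + 0.5) of each gene minus the mean of controls B and C, in the 9 F1 ovary libraries (columns), for interferon response genes (left) and for heat shock chaperones and unfolded protein response genes (right; Hspa5 is in both lists and shown once). Dose 2 A is the darkest column for most interferon genes, and the chaperone rows are mostly blue in all 3 dose 2 columns.

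The genes nearest to the known actions of the mixture were not called against control. Star, which brings cholesterol into mitochondria, was at 36.3, 24.5 and 365 CPM in the controls and at 219, 32.7 and 47.7 CPM at dose 2. Cyp19a1, the aromatase that makes estradiol, was at 19.6, 33.5 and 100.2 CPM in the controls and at 190, 15.9 and 8.89 CPM at dose 2. Cyp17a1 of theca cells was at 387, 200 and 910 CPM in the controls and at 1428, 263 and 207 CPM at dose 2. Control C and dose 2 A were high for all 3 genes, so the groups overlapped. The log2 fold changes were -0.49 ± 1.12 for Star, 0.50 ± 1.11 for Cyp19a1 and 0.35 ± 0.83 for Cyp17a1 (SE; edgeR adjusted p = 0.971, 0.97 and 0.972). Without control A they were -0.96 ± 1.11, 0.10 ± 1.16 and 0.19 ± 0.91. A change of 2-fold in either direction lies within 2 SE of each of these values. Hsd3b1, an enzyme of progesterone synthesis, varied less, at 3706, 3935 and 3926 CPM in the controls and 3848, 3581 and 3224 CPM at dose 2. Its log2 fold change was -0.12 ± 0.08 (edgeR adjusted p = 0.821), and -0.15 ± 0.10 without control A. At dose 1 Hsd3b1 was at 4486, 4609 and 4456 CPM, above every control and dose 2 library, and DESeq2 called it between the doses (log2 difference -0.34 ± 0.08 for dose 2 minus dose 1 in edgeR; edgeR adjusted p = 0.809; DESeq2 adjusted p = 0.00253). Of the 21 steroidogenesis genes tested, 14 were higher and 7 lower, with a median log2 fold change of 0.03. Without control A, 10 were higher and 11 lower, with a median of -0.0017. The median was -0.21 without dose 2 A and 0.29 without control C. Cyp11a1, which starts steroid synthesis from cholesterol, was at 991, 623 and 1386 CPM in the controls and at 2214, 961 and 503 CPM at dose 2 (log2 fold change 0.30 ± 0.48; edgeR adjusted p = 0.954; 0.29 ± 0.53 without control A).

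Estrogen receptor genes and targets were likewise not called against control. Esr1 was at 56.7, 67.2 and 63.8 CPM in the controls and at 64.8, 62.9 and 69.2 CPM at dose 2 (log2 fold change 0.07 ± 0.10; edgeR adjusted p = 0.949). Esr2, the receptor of granulosa cells, was at 308, 314 and 360 CPM in the controls and at 205, 293 and 321 CPM at dose 2 (-0.26 ± 0.16; edgeR adjusted p = 0.814). Greb1, an estrogen-induced coactivator, was at 776, 841 and 748 CPM in the controls and at 1272, 603 and 522 CPM at dose 2 (0.02 ± 0.35). Pgr, the progesterone receptor, was at 2.28, 2.08 and 2.76 CPM in the controls and at 5.33, 2.14 and 2.88 CPM at dose 2 (0.54 ± 0.34). Without control A the log2 fold changes were -0.00078 ± 0.10 for Esr1, -0.31 ± 0.18 for Esr2, 0.0034 ± 0.39 for Greb1 and 0.51 ± 0.37 for Pgr, so that Esr1 changed sign. Without dose 2 A, Pgr was at 0.08 and Esr2 at -0.09, and without dose 2 C Esr2 was at -0.40 (log2 fold changes). Of 22 estrogen response genes tested, 16 were higher, with a median log2 fold change of 0.05 (0.03 without control A, and 0.15 without dose 2 C). Complement C3, an estrogen-induced gene in the uterus, was at 31.2, 29.9 and 11 CPM in the controls and at 67.7, 62.3 and 36 CPM at dose 2. C3 lay above every control in each dose 2 library (log2 fold change 1.20 ± 0.39; edgeR adjusted p = 0.814; 1.43 ± 0.42 without control A, edgeR adjusted p = 0.999).

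The cyclooxygenases are the targets of ibuprofen and diclofenac. Ptgs1 was at 2.53, 2.87 and 2.51 CPM in the controls and at 4.01, 4.41 and 3.3 CPM at dose 2, above every control. Its log2 fold change was 0.56 ± 0.26 (SE; edgeR adjusted p = 0.814), or 0.53 ± 0.29 without control A (edgeR adjusted p = 0.999). The inducible Ptgs2 was below 1 CPM in every library and overlapped between the groups (log2 fold change -0.36 ± 0.71, or -0.82 ± 0.59 without control A). Of the 23 prostaglandin pathway genes tested, 14 were higher, with a median log2 fold change of 0.13 (0.08 without control A, and 0.20 without control C).

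The gonadotropin receptors and Amh completed the panel. Fshr of granulosa cells was at 35.8, 37.9 and 36.8 CPM in the controls and at 50.2, 35.8 and 38.6 CPM at dose 2, and Lhcgr at 185, 119 and 234 CPM and at 245, 97.8 and 120 CPM. Amh, made by granulosa cells of growing follicles, was at 293, 362 and 357 CPM in the controls and at 291, 289 and 464 CPM at dose 2. All 3 overlapped between the groups, with log2 fold changes of 0.17 ± 0.18, -0.21 ± 0.37 and 0.04 ± 0.20 (SE; edgeR adjusted p = 0.907, 0.96 and 0.989). Without control A these were 0.15 ± 0.20, -0.19 ± 0.40 and -0.05 ± 0.21, and Amh changed sign. The log2 fold change of Fshr was 0.01 without dose 2 A.

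**Figure D3:**
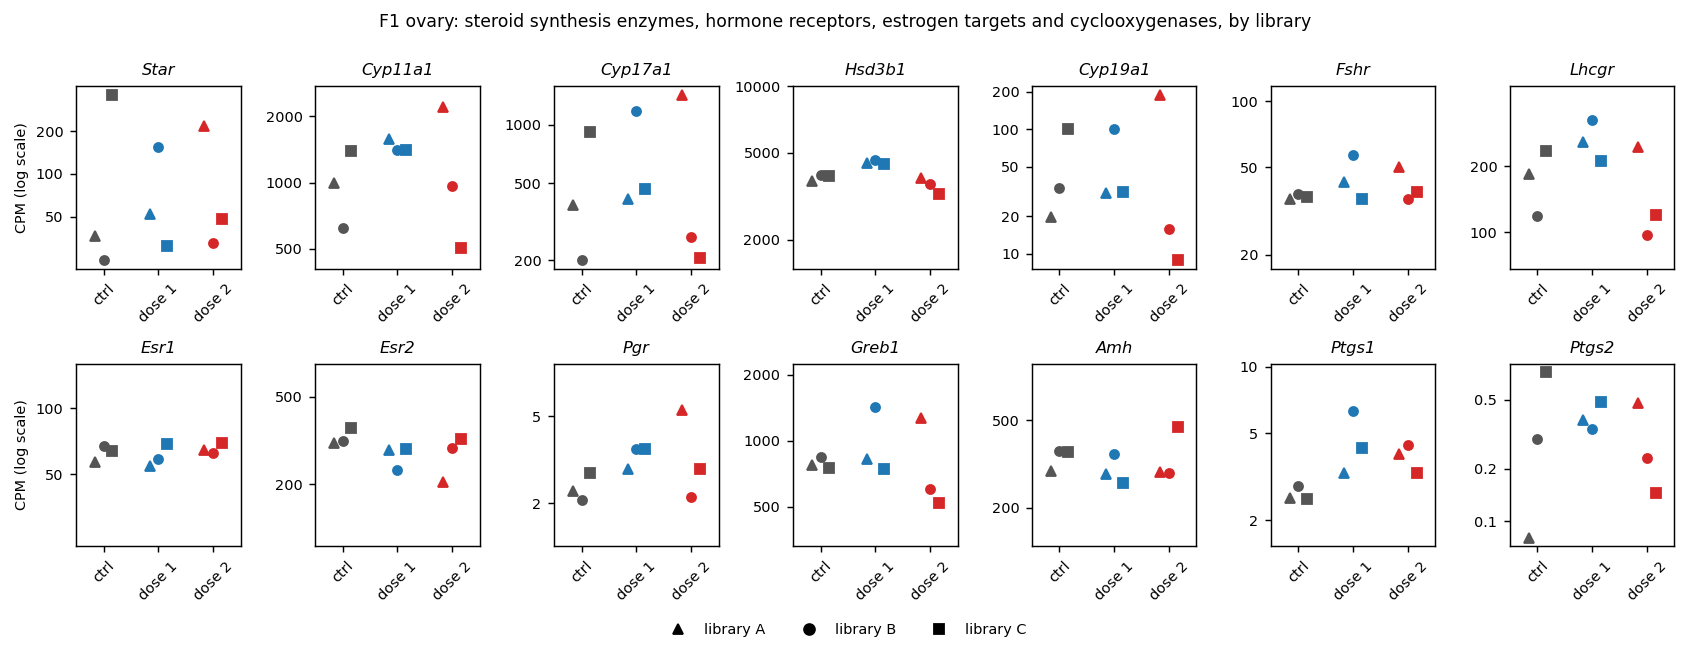
CPM on a log axis of 14 genes of steroid synthesis, hormone reception, estrogen response and prostaglandin synthesis in the 9 F1 ovary libraries, with symbols for libraries A, B and C. For Star, Cyp17a1 and Cyp19a1 the libraries of one group spread more widely than the groups differ, while Hsd3b1 and Esr1 are tight.

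Against control edgeR called no gene at all, so none in the cell type lists. DESeq2 called Tcf21, which is on the stroma and theca lists, with and without control A. Over all genes tested, 45% were higher at dose 2 with control A and 49.8% without it. Granulosa cell genes had a median log2 fold change of -0.10 with and without control A, with 11 of 24 higher, and of -0.02 without control B. Luteal and theca genes had medians of -0.10 and 0.12 (-0.15 and 0.09 without control A). Both medians changed sign with 1 other library left out: luteal genes were at -0.25 without dose 2 A and 0.07 without dose 2 B, and theca genes at -0.13 and 0.20. The egg coat genes Zp1, Zp2 and Zp3 had log2 fold changes of -0.03, 0.03 and 0.07 against control (-0.04, 0.05 and 0.09 without control A). They were 0.43, 0.44 and 0.48 higher than at dose 1 on the log2 scale. Between the doses edgeR called no gene. DESeq2 called 0.42% of genes tested, these 3 among them (DESeq2 adjusted p = 0.0236, 0.00226 and 0.0356). Stroma and fibroblast genes, a list that holds Tcf21, were higher in 14 of 18 cases, with a median of 0.20 (0.17 without control A, and 0.32 without control B). Collagen and extracellular matrix genes were higher in 27 of 31 cases, with a median of 0.19 (0.18 without control A), and Lamb1, a laminin chain, was at 476, 527 and 470 CPM in the controls and at 564, 560 and 579 CPM at dose 2. In the endothelial list, 17 of 21 genes were higher, with a median of 0.07 (0.05 without control A). In this list, 5 genes lay above all 3 controls in each dose 2 library, against 4.12% of all genes tested. Among those 5, the vascular growth factor receptors Kdr and Flt4 had log2 fold changes of 0.26 ± 0.08 and 0.24 ± 0.07 (SE; edgeR adjusted p = 0.814 for each), or 0.26 ± 0.10 and 0.29 ± 0.08 without control A. Surface epithelium genes were higher in 15 of 17 cases, with a median of 0.45 (0.50 without control A), and the keratin Krt19 was at 15.4, 17.3 and 5.34 CPM in the controls and at 16.2, 32.5 and 22.1 CPM at dose 2. Control C was the lowest library for Krt19, and without control C the median of the surface epithelium list was 0.20.

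The medians of 5 germ cell lists and of the oviduct epithelium list changed sign when control A was left out. The median log2 fold change was -2.02 for spermatocyte genes, -2.35 for round spermatid genes and -2.58 for elongating spermatid genes with control A. Without it the medians were 0.46, 0.81 and 0.77. By the 16 germ cell genes abundant in testis, dose 2 A and B reached 0.657% and 0.577% of the level in control testes. Controls B and C reached 0.24% and 0.286%, and dose 2 C 0.242%. The part of these traces in the medians was not tested. Meiosis genes went from -0.89 to 0.20, piRNA pathway genes from -0.49 to 0.11, and genes of the oviduct epithelium, a somatic tissue, from -0.36 to 0.23. For these 6 lists, leaving out any of the other 5 libraries of the comparison kept the median below 0. The oviduct median was lowest without dose 2 B, at -0.93. The median of the spermatogonia list, over 17 genes, was 0.003 with control A and 0.13 without it.

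**Figure D4:**
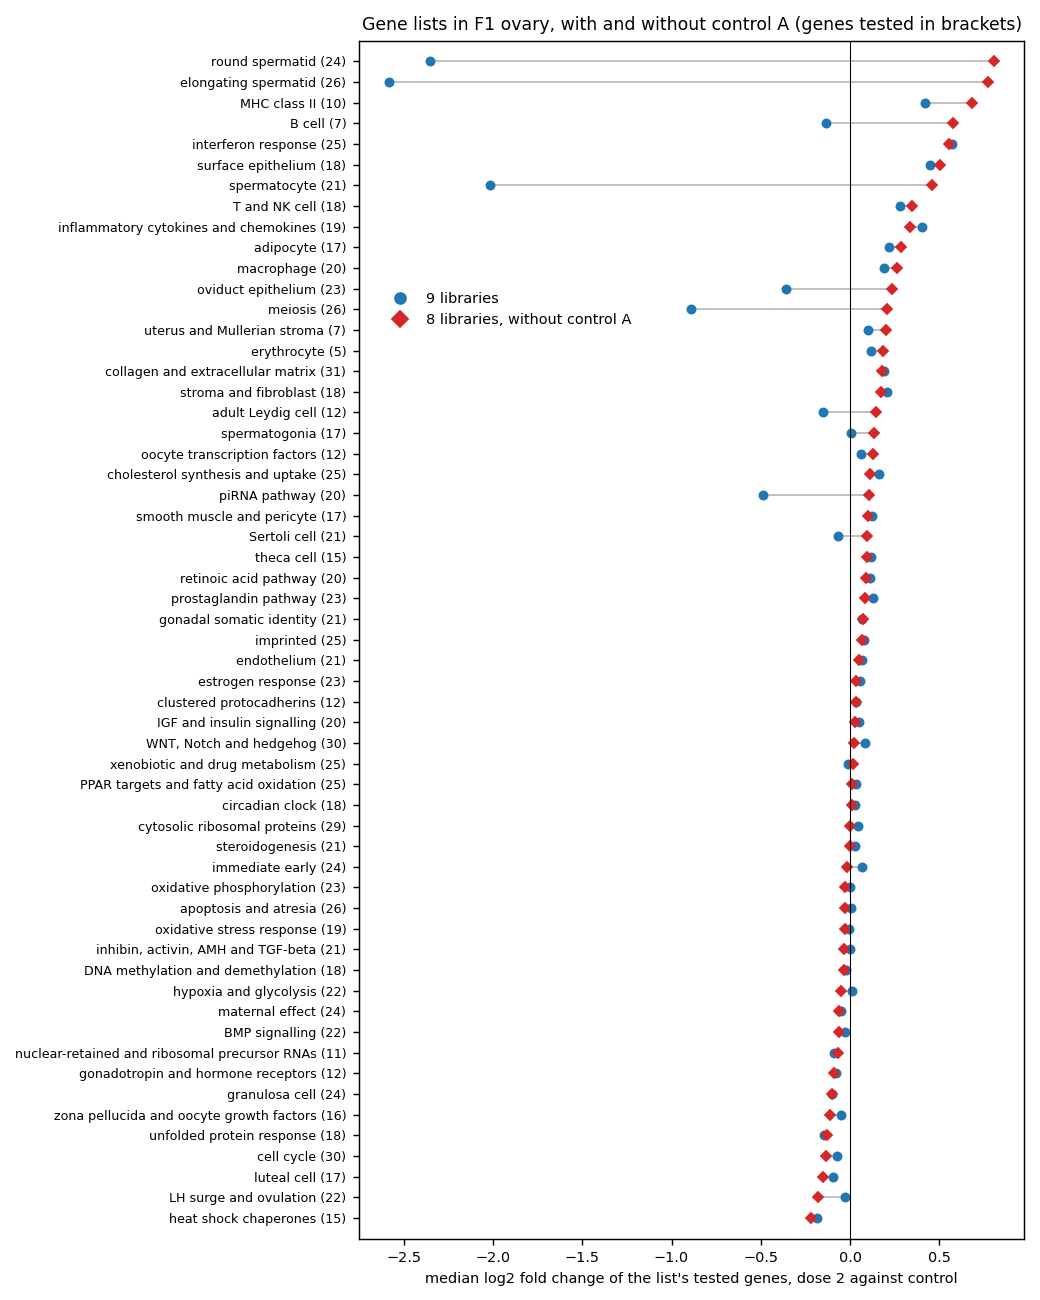
Median log2 fold change at dose 2 against control of the tested genes of each list, with all 9 libraries (circles) and without control A (diamonds), ordered by the latter. The spermatocyte, spermatid, meiosis and piRNA lists switch from negative to positive medians, while the interferon list stays near 0.57 and 0.55 and the heat shock list near -0.19 and -0.22.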

How the data were processed

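Ovary RNA of mice was sequenced, and the authors deposited raw counts per gene, one column per library; per the submitters' processing notes the build was mm39 and the tools included TopHat2 2.1.1, Bowtie2 2.4.5, featureCounts 2.0.3 and DESeq2 1.32.0. No source names the strand setting or annotation used. Groups were taken from the labels. The 9 F1 ovary libraries (36640553 to 57383270 counts) were fitted together with edgeR 4.0.16 in R 4.3.3 (TMM factors, filterByExpr with a minimum count of 10, quasi-likelihood F test, Benjamini-Hochberg threshold 0.05 over all genes tested), and again without control A. CPM uses TMM-scaled library sizes, and ± after a log2 value is the SE. DESeq2 1.42.0 was an alternative. Among the 6 libraries, no pair of one group agreed within sampling noise (lowest chi-square per degree of freedom 23.6). Named genes are the 3 with the lowest unadjusted p in each direction without control A, since none was called, plus a panel of 14 genes. DESeq2 calls and list members described in full were picked after their values were seen. The members and the 58 lists were chosen with earlier results of these data known. Promoters were matched by Entrez gene ID. With 3 libraries per group, the SE covers counting error and the spread between libraries together.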

Additional observations from a re-analysis of the deposited data

How the results depend on the processing

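Counts of called genes stayed at 0 in edgeR with RLE size factors, with no filter on low counts, with only the libraries of the groups compared, and at an adjusted p threshold of 0.1, for dose 2 against control with and without control A. With DESeq2 the counts were 8 and 9, and 54 for dose 2 against dose 1; the cause was not tested. Leaving out each library in turn gave 0 to 1 genes in each of the 3 comparisons, the 1 being Ifi204 without dose 2 C. With the replicate letter as a block, 0 genes were called in each comparison. Deviations of same-letter libraries correlated at 0.327 (A), -0.228 (B) and 0.443 (C), and those of different letters at -0.532 to 0.487. With 3 libraries per group, these values cannot show whether the letters pair the libraries. Under the replicate block the log2 fold change of Cyp19a1 turned to -0.15 and that of Greb1 to -0.045. With 1 library left out, the log2 fold change ran from -1.81 to 1.72 for Star, -0.45 to 0.66 for Cyp11a1, -1.09 to 1.11 for Cyp17a1, -2.05 to 1.43 for Cyp19a1, -0.00078 to 0.13 for Esr1, -0.49 to 0.25 for Greb1, -0.72 to 0.028 for Lhcgr, -0.23 to 0.16 for Amh, -0.96 to 0.55 for Ptgs2, -0.44 to 4.02 for Gm6567, 0.08 to 0.79 for Pgr, 0.01 to 0.27 for Fshr, -0.40 to -0.09 for Esr2 and 0.44 to 2.15 for Hepacam. Bmpr2 ran from -0.52 to -0.48, Tcf21 from 0.43 to 0.52 and Sfrp1 from 0.42 to 0.51. The number of genes at an unadjusted p under 0.05 was 671 with all libraries, 1839 without control B and 1607 without control C. Ptgs2, below 1 CPM in every library, rests on few counts; counting error and the spread between libraries were not separated.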
